A study of Mus musculus with 8 samples.

Results

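The SLAM (signaling lymphocytic activation molecule) receptors and their adaptor SAP were followed through 4 kinds of sorted CD4 T cells, represented by 8 genes: Slamf1, Slamf6, Slamf7, Cd84, Ly9, Cd48, Cd244, and Sh2d1a, which encodes SAP. The genes were taken by name from the array design, which carries 29924 gene names, and 13 probes were found for them. All 8 were among the 15764 genes tested, and 7 were well above background on every array, the exception being Slamf7. Cells came from peripheral lymph nodes (pLN) of B6.Cg-Foxp3<tm1Mal> mice, in which Foxp3+ cells carry EGFP (GFP). All mice carried this allele and all received KLH, a foreign protein, with the adjuvant alum under the skin, so that no unimmunized animals were compared. At d12 and at d25 p.i., naïve CD4 T cells (CD4+ GFP- PD1- GL7-), follicular helper cells (TFH, GFP- PD1 high GL7+), regulatory cells (Treg, GFP+ PD1- GL7-), and follicular regulatory cells (TFR, GFP+ PD1 high, GL7+ or GL7-) were sorted from pools of 8 to 15 mice of both sexes aged 8 to 14 weeks. RNA of each cell type was hybridized to 1 one-color array per day, giving 2 arrays per cell type. No population was hybridized more than once per day, and the p values measure only the spread left between these arrays. The naïve and Treg gates are defined by the absence of PD1 and GL7 and may hold cells other than resting ones. The TFH and TFR gates differ in GL7 as well as in GFP, and comparisons between them cannot tell these apart.

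SLAM receptors are cell surface proteins of the immunoglobulin superfamily, and most of them bind a second copy of themselves on the neighboring cell. Most, though not CD48, have cytoplasmic tails with tyrosine motifs that recruit SAP, a small adaptor which brings in the kinase Fyn. In the absence of SAP, phosphatases can occupy the same motifs. T cells without SAP fail to hold on to antigen-presenting B cells, and mice that lack it form hardly any germinal centers.

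The 7 receptor genes lie side by side on chromosome 1, where their probes span 356 kb, while Sh2d1a lies on chromosome X. All probe positions are those of the array files in build NCBI37, and no exon or UTR annotation of that build was used. Because the receptor genes are neighbors that nevertheless behaved differently in the 4 cell types, the 250 bases in front of the gene start are shown for Slamf6 and Slamf1, which were higher in TFH cells, and for Cd84, Cd244, Slamf7, and Cd48, which did not pass the test there. The sequences are from RefSeq (build GRCm38.p6), whose promoter table holds 6 of the 8 genes, with Ly9 and Sh2d1a as the genes without an entry. They read 5′ to 3′ on the strand of the gene, from chr1:171917212-171917461 (plus strand) for Slamf6, chr1:171766882-171767131 (plus) for Slamf1, chr1:171839447-171839696 (plus) for Cd84, chr1:171558943-171559192 (plus) for Cd244, listed there as Cd244a, chr1:171649000-171649249 (minus) for Slamf7, and chr1:171681742-171681991 (plus) for Cd48. Capitals mark the letters TGANTCA on either strand, the motif of the activation-induced factor AP-1.
Slamf6: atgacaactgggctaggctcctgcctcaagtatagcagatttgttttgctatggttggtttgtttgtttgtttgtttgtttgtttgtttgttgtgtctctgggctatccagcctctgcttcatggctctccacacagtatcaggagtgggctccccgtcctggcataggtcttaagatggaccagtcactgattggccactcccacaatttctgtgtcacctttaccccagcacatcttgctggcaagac
Slamf1: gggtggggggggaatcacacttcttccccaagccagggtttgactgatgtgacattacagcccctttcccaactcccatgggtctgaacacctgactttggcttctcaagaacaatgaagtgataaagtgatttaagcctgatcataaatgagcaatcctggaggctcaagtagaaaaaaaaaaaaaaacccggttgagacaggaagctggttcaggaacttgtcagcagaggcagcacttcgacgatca
Cd84: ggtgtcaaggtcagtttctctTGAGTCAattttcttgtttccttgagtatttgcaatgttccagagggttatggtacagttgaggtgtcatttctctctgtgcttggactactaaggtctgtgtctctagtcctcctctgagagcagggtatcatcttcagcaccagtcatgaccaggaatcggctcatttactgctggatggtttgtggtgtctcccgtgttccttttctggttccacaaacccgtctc
Cd244: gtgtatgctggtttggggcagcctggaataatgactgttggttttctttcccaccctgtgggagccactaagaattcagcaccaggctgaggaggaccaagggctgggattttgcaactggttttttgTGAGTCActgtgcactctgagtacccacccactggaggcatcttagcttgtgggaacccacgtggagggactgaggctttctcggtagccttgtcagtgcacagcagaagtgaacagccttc
Slamf7: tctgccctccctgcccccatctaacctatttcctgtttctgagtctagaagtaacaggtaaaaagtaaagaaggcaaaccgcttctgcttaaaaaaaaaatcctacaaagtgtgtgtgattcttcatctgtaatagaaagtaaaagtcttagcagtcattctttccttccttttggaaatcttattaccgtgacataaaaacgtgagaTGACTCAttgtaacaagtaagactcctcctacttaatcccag
Cd48: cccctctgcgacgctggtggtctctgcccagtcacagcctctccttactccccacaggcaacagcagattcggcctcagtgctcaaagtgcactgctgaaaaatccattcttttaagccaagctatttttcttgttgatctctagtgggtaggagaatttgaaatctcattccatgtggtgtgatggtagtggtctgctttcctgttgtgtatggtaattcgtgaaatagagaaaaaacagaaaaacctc

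The AP-1 letters were found in 3 of the 6 windows, beginning at -229 from the gene start in Cd84, at -122 in Cd244, and at -42 in Slamf7. The windows of Slamf6 and Slamf1, higher in TFH cells, and of Cd48, uncalled there, do not hold them. Of 32851 promoter windows of the same length, 6.75% hold these letters. The letters CTTTGA, a core motif of TCF-1, were found on either strand in Cd48 alone, compared with 13.8% of all windows. These matches describe the sequence only.

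Array values are normalized background-corrected signals in relative units (RU) with a floor of 20. A level is compared only between arrays for the same probe, never between genes, because probes differ in brightness. Differences between cell types are log2 differences with their SE from limma, fitted to all 15764 genes on all 8 arrays with the day as a further term, and the calls use p values adjusted over all of these genes with a threshold of 0.05. Arrays of d12 shared 1 slide, whereas at d25 naïve and TFH cells were on one slide and Treg and TFR cells on another. The day can therefore not be told apart from the slide, and at d25 comparisons of Foxp3+ with Foxp3- cells cross slides. In the sorted cells, Foxp3 and Pdcd1 (PD1) served to gate and are no finding. As a check of the labels, Foxp3 read 37266 to 49262 RU on the Treg and TFR arrays and 66 to 358 RU on the naïve and TFH arrays. Each probe had 3 to 4 usable spots per array. For the main probe of each gene the SD between these spots was at most 0.22 on the log2 scale, except for Slamf7, where it reached 0.76. Among the other probes it reached 0.37 for Cd84 and 0.98 for the silent one of Sh2d1a.

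**Figure D1:**
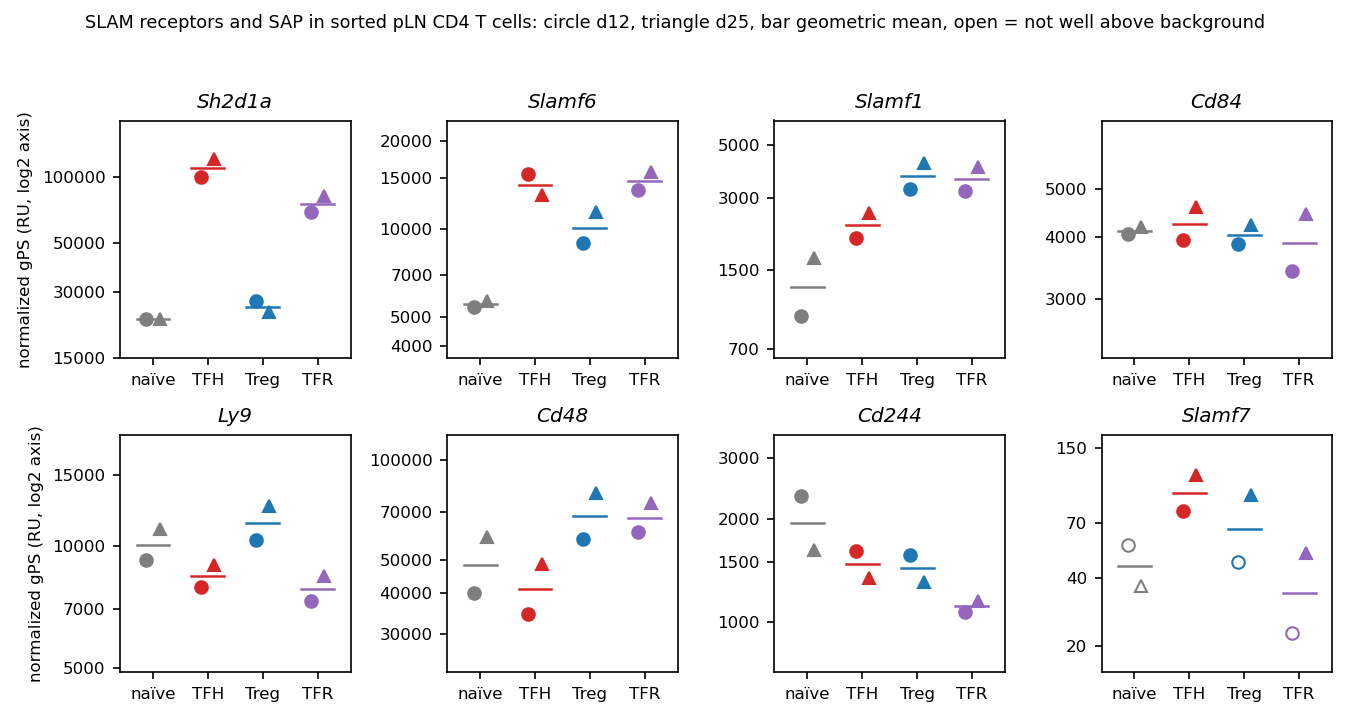
Normalized signal (RU, log2 axis with its own range in each panel) of the main probe of each gene on the 8 arrays, with circles for d12, triangles for d25, bars for the geometric mean of both, and open symbols for arrays on which the probe was not well above background. Sh2d1a stood between 69161 and 120355 RU in both follicular cell types and between 22435 and 27154 RU in the other 2, and Cd84 between 3407 and 4603 RU on all arrays.

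Sh2d1a, the adaptor gene, separated follicular from non-follicular cells most widely. In naïve CD4 T cells its signal was 22435 RU at d12 and 22536 RU at d25, and in Treg cells it was 27154 and 24290 RU. TFH cells gave 99936 and 120355 RU and TFR cells 69161 and 82113 RU. Every follicular array was thus above every non-follicular one, and both TFH arrays were above both TFR arrays. Sh2d1a rose 4.88-fold in TFH over naïve CD4 T cells (log2 difference 2.29 ± 0.14, limma adjusted p = 0.000455). In TFR over Treg cells it rose 2.93-fold (1.55 ± 0.14, adjusted p = 0.00225). TFR minus TFH, at -0.54 ± 0.14, missed the threshold narrowly (adjusted p = 0.0512), and Treg minus naïve was 0.19 ± 0.14 (adjusted p = 0.44). The TFR to TFH difference was -0.53 at d12, where all arrays shared a slide, and -0.55 at d25. It passed the threshold under 6 of 20 alternative processings that could be run for it, among them the authors' own normalized table (adjusted p = 0.045). The rise of Sh2d1a was smaller in the Foxp3+ than in the Foxp3- cells by 0.73 ± 0.19, which missed the threshold (adjusted p = 0.0954). A further Sh2d1a probe (chrX:39880985-39881044, main probe at chrX:39875116-39875175) stayed between 20 and 22 RU and was above background on 0 arrays.

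Slamf6 (Ly108), a receptor that binds itself and signals through SAP, was higher in all 3 other cell types than in naïve CD4 T cells. The main probe (chr1:173871767-173871826) read 5445 and 5680 RU in naïve, 15502 and 13076 RU in TFH, 8967 and 11493 RU in Treg, and 13637 and 15713 RU in TFR cells. Both naïve arrays were lowest, and the arrays of TFH and TFR cells overlapped. Slamf6 rose 2.56-fold in TFH over naïve cells (1.36 ± 0.16, limma adjusted p = 0.00309), a call that held under all 21 alternatives, and 1.83-fold in Treg over naïve cells (0.87 ± 0.16, adjusted p = 0.0386). In TFR over naïve cells it was 2.63-fold higher (log2 1.40 ± 0.16, adjusted p = 0.00256). TFR cells exceeded Treg cells by 0.53 ± 0.16 (adjusted p = 0.0557), while TFR minus TFH was 0.04 ± 0.16 (95% interval -0.38 to 0.46, adjusted p = 0.884). The Treg call depended on the number of arrays. It was lost on leaving out either naïve array (adjusted p = 0.171 and 0.172), either Treg array (0.101 and 0.202), or either TFR array (0.0999 each), and also with the slide in place of the day (0.68, adjusted p = 0.131). Within the d12 slide Treg minus naïve was 0.72, and at d25 across slides it was 1.02.

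The other Slamf6 probe (chr1:173873620-173873679) gave a more graded picture. Its signal was 1787 and 1829 RU in naïve, 6058 and 6841 RU in TFH, 2897 and 3213 RU in Treg, and 4542 and 5695 RU in TFR cells. No arrays of different cell types overlapped, and TFH cells were highest. With this probe TFH minus naïve was 1.83 ± 0.11 (adjusted p = 0.000433 among 20238 probes) and TFR minus Treg 0.74 ± 0.11 (adjusted p = 0.00752). TFR minus TFH was -0.34 ± 0.11 (adjusted p = 0.0862), the opposite sign from the main probe. The rise in the Foxp3+ cells was smaller than that in the Foxp3- cells by 1.09 ± 0.15 (adjusted p = 0.0222), whereas the main probe gave a difference of 0.83 ± 0.23 that did not pass (adjusted p = 0.105). Both probes therefore place Slamf6 higher in TFH than in naïve cells, and they disagree on the order of TFH and TFR cells. Which transcripts each probe detects was not tested.

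**Figure D2:**
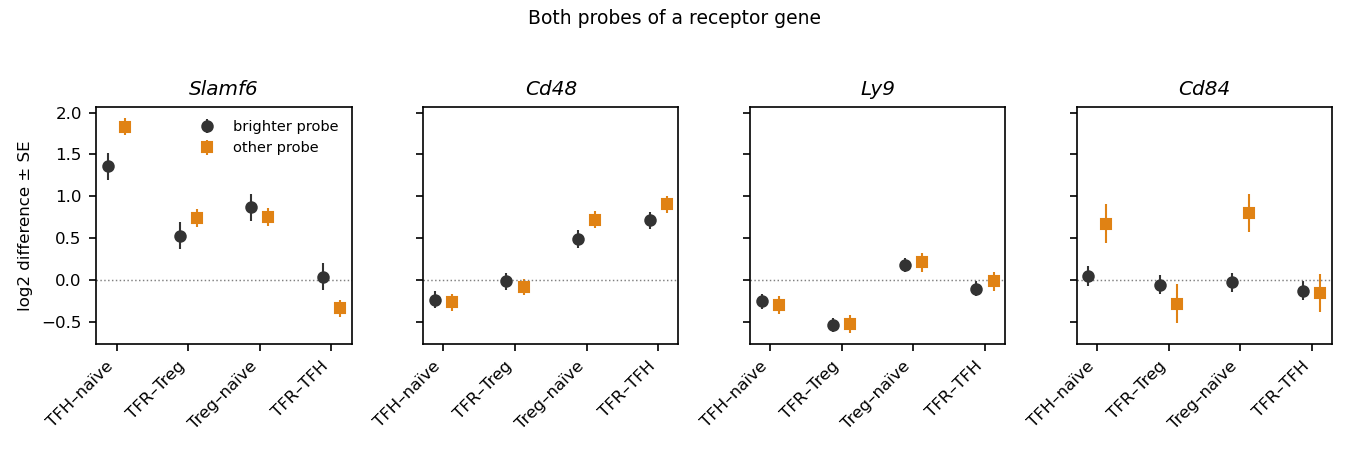
Log2 differences with SE for both probes of the 4 receptor genes with a second measured probe, in the 4 comparisons of cell types. For Ly9 both probes gave nearly the same values, for Cd48 TFR minus TFH was 0.71 with the brighter and 0.91 with the other probe, and for Slamf6 TFR minus TFH was 0.04 with the brighter and -0.34 with the other probe.

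Slamf1 (CD150), the founding member of the family, followed Foxp3 more than the follicle. Its probe (chr1:173730343-173730402) read 962 and 1688 RU in naïve, 2042 and 2599 RU in TFH, 3283 and 4224 RU in Treg, and 3223 and 4050 RU in TFR cells. All Foxp3+ arrays were above all Foxp3- arrays, and both TFH arrays were above both naïve arrays. Slamf1 was 2.92-fold higher in Treg than in naïve cells (1.55 ± 0.15, limma adjusted p = 0.00664) and 1.81-fold higher in TFH than in naïve cells (0.85 ± 0.15, adjusted p = 0.00985). It was also 1.57-fold higher in TFR than in TFH cells (0.65 ± 0.15, adjusted p = 0.0407). No step was seen from Treg to TFR cells, where the difference was -0.04 ± 0.15 (95% interval -0.43 to 0.34). The difference between the follicular steps in Foxp3+ and Foxp3- cells was -0.90 ± 0.21 and missed the threshold (adjusted p = 0.0736). Treg minus naïve was 1.77 at d12 on a single slide and 1.32 at d25, and TFR minus TFH 0.66 and 0.64. Leaving out single arrays ended some of these calls. Treg over naïve lost its call without the d12 Treg array (1.48, adjusted p = 0.0681) or the d25 Treg array (1.61, adjusted p = 0.0565), and TFH over naïve without the d12 TFH array (0.78, adjusted p = 0.0527). TFR over TFH lost its call without any one of the 6 TFH, TFR, and Treg arrays (adjusted p from 0.081 to 0.225), and with the slide as a block in place of the day it stood at 0.77 (adjusted p = 0.0917).

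Ly9 (CD229), another receptor that binds itself and recruits SAP, ran the other way. The main probe (chr1:173518744-173518790, minus strand) gave 9211 and 11024 RU in naïve, 7924 and 8988 RU in TFH, 10324 and 12544 RU in Treg, and 7316 and 8427 RU in TFR cells. At each day, both follicular populations were below both non-follicular ones. Ly9 fell from Treg to TFR cells to 0.69 of its level (-0.54 ± 0.08, limma adjusted p = 0.00844), and the other probe (chr1:173523555-173523614) gave -0.53 ± 0.11 (adjusted p = 0.0197). TFH minus naïve was -0.26 ± 0.08 and just missed the threshold (adjusted p = 0.0549). The size of the Treg to TFR difference hardly depended on single arrays, between -0.57 and -0.50, yet its call was lost without the d12 Treg (adjusted p = 0.0525), d25 Treg (0.064), d12 TFR (0.0577), or d25 TFR array (0.0646). Treg cells had the highest and TFR cells the lowest Ly9 signal. TFH cells were not distinguishable from TFR cells (TFR minus TFH -0.10 ± 0.08, adjusted p = 0.409), nor naïve from Treg cells (Treg minus naïve 0.18 ± 0.08, adjusted p = 0.249).

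Cd84, which also binds itself and SAP, showed no difference between the cell types on its main probe (chr1:173816502-173818732). Naïve cells read 4061 and 4192 RU, TFH cells 3949 and 4603 RU, Treg cells 3867 and 4243 RU, and TFR cells 3407 and 4450 RU, so that all groups overlapped. TFH minus naïve was 0.05 ± 0.11 (95% interval -0.24 to 0.34, limma adjusted p = 0.753), and TFR minus Treg -0.06 ± 0.11 (95% interval -0.34 to 0.23). The other Cd84 probe (chr1:173820027-173820086) was dim, between 67 and 159 RU and above background on 6 arrays. It gave larger but uncalled differences, 0.67 ± 0.23 for TFH minus naïve (adjusted p = 0.0699) and 0.80 ± 0.23 for Treg minus naïve (adjusted p = 0.113).

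Cd48 encodes a small receptor without a signaling tail that serves as ligand of CD244 and CD2. It was higher in Foxp3+ than in Foxp3- cells, and neither follicular step passed the test. The main probe (chr1:173635201-173635260) gave 39841 and 58636 RU in naïve, 34509 and 48737 RU in TFH, 57967 and 79473 RU in Treg, and 60647 and 74472 RU in TFR cells. The groups overlapped between the days, but at each day both Foxp3+ arrays were above both Foxp3- arrays. Cd48 was 1.64-fold higher in TFR than in TFH cells (0.71 ± 0.10, limma adjusted p = 0.0106) and 1.4-fold higher in Treg than in naïve cells (0.49 ± 0.10, adjusted p = 0.0475). TFR minus Treg was -0.01 ± 0.10 (95% interval -0.27 to 0.24) and TFH minus naïve -0.24 ± 0.10 (adjusted p = 0.108), the latter passing narrowly with normexp background correction (adjusted p = 0.0493) and with a variance trend (0.0496). The other probe (chr1:173629721-173629780) gave 0.91 ± 0.10 for TFR minus TFH (adjusted p = 0.00618) and 0.72 ± 0.10 for Treg minus naïve (adjusted p = 0.0193). Among the same 20238 probes the main one did not pass for Treg minus naïve (adjusted p = 0.0558). On the d12 slide these differences were 0.81 and 0.54 on the main probe, and across slides at d25 they were 0.61 and 0.44. With the main probe the Treg call was lost on leaving out any one of the 8 arrays (adjusted p from 0.0621 to 0.235), and with the slide in place of the day it stood at 0.57 (adjusted p = 0.121). The TFR over TFH call was lost without the d12 TFR array (0.61, adjusted p = 0.0797).

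Cd244, the receptor for CD48 and best known from NK and CD8 T cells, was highest in naïve and lowest in TFR cells. Its probe (chr1:173515388-173515447) read 2331 and 1623 RU in naïve, 1607 and 1349 RU in TFH, 1568 and 1311 RU in Treg, and 1075 and 1151 RU in TFR cells. Both TFR arrays were below all others, and both naïve arrays above all others. None of the 4 main comparisons passed, with TFH minus naïve at -0.40 ± 0.16 (limma adjusted p = 0.0987) and TFR minus Treg at -0.37 ± 0.16 (adjusted p = 0.132). Between the ends of this order, TFR minus naïve was -0.81 ± 0.16 (adjusted p = 0.0128). This call was lost without the d12 naïve array (-0.61, adjusted p = 0.069) or the d12 TFR array (-0.58, adjusted p = 0.0619). TFH and Treg cells stood together in the middle (Treg minus TFH -0.04 ± 0.16, 95% interval -0.45 to 0.38). Fewer Cd244-expressing cells in a sorted population and less RNA per cell cannot be told apart here, and the same holds for every gene described. Of 6 genes that mark NK cells, 4 to 5 were above background on the naïve and TFH arrays and 3 to 4 on the Treg and TFR arrays, with summed signals of 4321 to 6463 RU in the former and 1293 to 3131 RU in the latter. Ncr1, which defines NK cells, was at the floor on 4 arrays and above background on 0. Klrb1c, also among the 6 genes, was higher in TFR than in naïve cells. It read 162 and 96 RU in naïve and 820 and 752 RU in TFR cells. In TFH cells it read 1484 and 3077 RU, and in Treg cells 77 and 35 RU. The other NK cell genes read lower in TFR than in naïve cells. The CD8 T cell genes Cd8a and Cd8b1 were above background on all 8 arrays, although the sort was for CD4+ cells, with summed signals of 4957 to 5118 RU in naïve, 2114 to 3174 RU in TFH, 4208 to 4565 RU in Treg, and 2110 to 2235 RU in TFR cells. In TFR versus naïve cells, Cd8a was lower (log2 difference -1.41 ± 0.30, adjusted p = 0.0162) and so was Cd8b1 (-1.15 ± 0.16, adjusted p = 0.00453), and Cd8b1 also in TFH versus naïve cells (-1.08 ± 0.16, adjusted p = 0.00605). The part of NK or CD8 T cells in the Cd244 values was not tested.

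Slamf7 (CRACC), a receptor of NK, B, and antibody-secreting cells, was the only dim gene. Its probe (chr1:173562534-173562593, minus strand) read 56 and 37 RU in naïve, 79 and 115 RU in TFH, 47 and 93 RU in Treg, and 23 and 52 RU in TFR cells. It was well above background on 4 arrays, namely both of TFH cells and those of Treg and TFR cells at d25. Slamf7 was tested only because both TFH arrays were above background, so higher values in TFH cells are not independent of that filter. In the mean of both days, TFH cells were at least 1.64-fold higher than naïve cells. This bound sets the mean of the brighter cell type against the other, whose arrays count at no less than the lowest signal well above background. Here and below, such a bound concerns the mean only and does not cover the spread between arrays or each single day. At d12 the log2 difference was 0.49. The fitted difference did not pass (1.07 ± 0.45, limma adjusted p = 0.111). TFH cells were at least 1.83-fold higher than TFR cells, with a fitted TFR minus TFH of -1.46 ± 0.45 (adjusted p = 0.0819). These fits depended on single naïve arrays. Without the d12 naïve array TFH minus naïve was 1.82 (adjusted p = 0.0143), and without either naïve array TFR minus TFH reached an adjusted p of 0.0191 and TFR minus Treg, at -0.92, one of 0.0318. In the 4 antibody-secreting cell genes on the array, summed signals were 5185 to 7308 RU in TFH, 960 to 5124 RU in Treg, 1841 to 2120 RU in TFR, and 2549 to 15144 RU in naïve cells. In 8 B cell genes they reached 18306 RU on the d25 TFH array and 6152 to 10398 RU on the 7 others. Pax5, which defines B cells, was at the floor on 7 arrays and above background on 0, while the 7 other B cell genes were each above background on 5 to 8 arrays. The part of B cells or antibody-secreting cells in the values of Slamf7 was not tested.

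**Figure D3:**
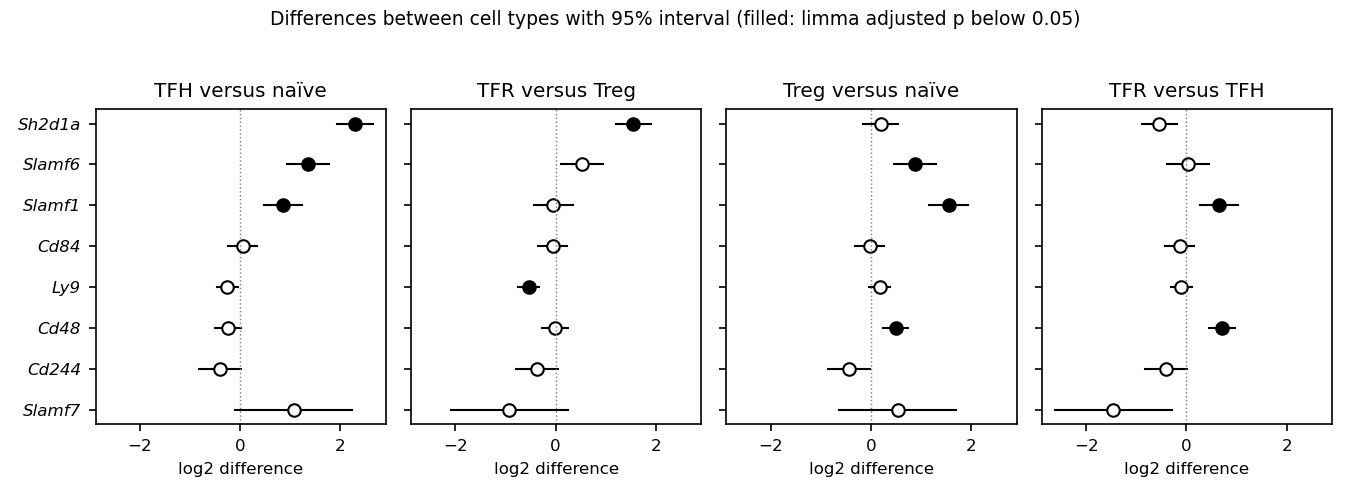
Log2 differences of the 8 genes with 95% intervals in 4 comparisons of cell types, filled where the limma adjusted p was below 0.05. Sh2d1a passed in both follicular steps, Slamf1 in 3 of the 4 comparisons, and Cd84, Cd244, and Slamf7 in none.

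Set side by side, the comparisons singled out different genes. In TFH versus naïve cells 3 of the 8 genes passed, Sh2d1a, Slamf6, and Slamf1, all higher, where 46.5% of all tested genes passed and 20.9% were higher. In TFR versus Treg cells 2 of 8 passed, Sh2d1a higher and Ly9 lower, against 39.6% of all genes. In TFR versus TFH cells 2 of 8 passed, Cd48 and Slamf1, both higher, against 22.1%. In Treg versus naïve cells 3 of 8 passed, Slamf1, Slamf6, and Cd48, all higher, against 9.88%, of which 5.89% were higher. Thus the share of SLAM genes called was below or near that of all genes in the first 3 comparisons and above it in the last, where each of the 3 calls was lost on leaving out single arrays. In the comparisons added to order the levels, 6 of 8 passed in TFR versus naïve cells (all but Cd84 and Slamf7), where 53.1% of all genes did, and 4 of 8 in Treg versus TFH cells (Sh2d1a, Slamf1, Cd48, and Ly9), where 39.8% did. Of the TFR versus naïve calls, Ly9 was lost without any one of the naïve or TFR arrays (adjusted p from 0.0849 to 0.104), Cd48 without the d12 naïve (0.0933) or d12 TFR array (0.0874), and Cd244 without the same arrays (0.069 and 0.0619). Of the Treg versus TFH calls, Slamf1 was lost without any one of the TFH or Treg arrays (adjusted p from 0.0589 to 0.118) and Ly9 without the d12 Treg (0.0677) or d25 Treg array (0.0957). The median log2 difference of the 8 genes was 0.45 in TFH versus naïve cells, compared with -0.07 over all genes, and 0.34 in Treg versus naïve cells, compared with -0.02.

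The difference between the follicular steps, TFR minus Treg less TFH minus naïve, passed for 0 of the 8 genes in limma on the main probes, against 8.49% of all genes. At an unadjusted p below 0.05 there were 4, Slamf1, Slamf6, Slamf7, and Sh2d1a, compared with 25.3% of all genes. The step was smaller in the Foxp3+ cells for Slamf6 and Sh2d1a and near 0 there for Slamf1, and for the dim Slamf7 it had the opposite sign (TFR minus Treg -0.92, TFH minus naïve 1.07). Between d12 and d25, 0 of 8 passed in limma, where 0.0698% of all genes did. Cd48, Slamf1, and Ly9 had an unadjusted p below 0.05 for the day and were higher at d25, Cd48 by 0.45 ± 0.07, Slamf1 by 0.46 ± 0.11, and Ly9 by 0.23 ± 0.06. They were higher at d25 in all 4 cell types. Over all genes 28.8% had an unadjusted p below 0.05 for the day.

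Around the receptor cluster, 46 other gene names have their probe within the span of the receptor probes or up to 500 kb outside it, and 29 of them were tested. In TFH versus naïve cells 4 were higher and 5 lower, and in TFR versus Treg cells 5 were higher and 6 lower, while 46.5% and 39.6% of all genes passed. Their median log2 difference was -0.13 in TFH versus naïve cells and -0.10 in TFR versus Treg cells. Only a few neighbors moved by 1 or more on the log2 scale. Cfap126, a gene of motile cilia, was 3.64 ± 0.31 higher in TFH than in naïve cells (limma adjusted p = 0.00112) and 3.40 ± 0.31 higher in TFR than in Treg cells (adjusted p = 0.00235), at the far edge of the window. Klhdc9 was at least 4.77-fold higher in TFR than in Treg cells (adjusted p = 0.0208), a call lost without either Treg array or the d25 TFR array (adjusted p up to 0.115). F11r, a junction protein gene, was at least 2.36-fold higher there (adjusted p = 0.0381), and this call was lost without any one of the naïve, Treg, or TFR arrays (adjusted p up to 0.197). A probe without a gene name on the Slamf6 side was 1.39 ± 0.24 lower in TFH than in naïve cells (adjusted p = 0.00986). Among the receptor genes in TFH versus naïve cells, the 2 called ones, Slamf1 and Slamf6, lie at one end of the cluster with the uncalled Cd84 between them, and Cd244, Ly9, Slamf7, and Cd48 were not called.

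**Figure D4:**
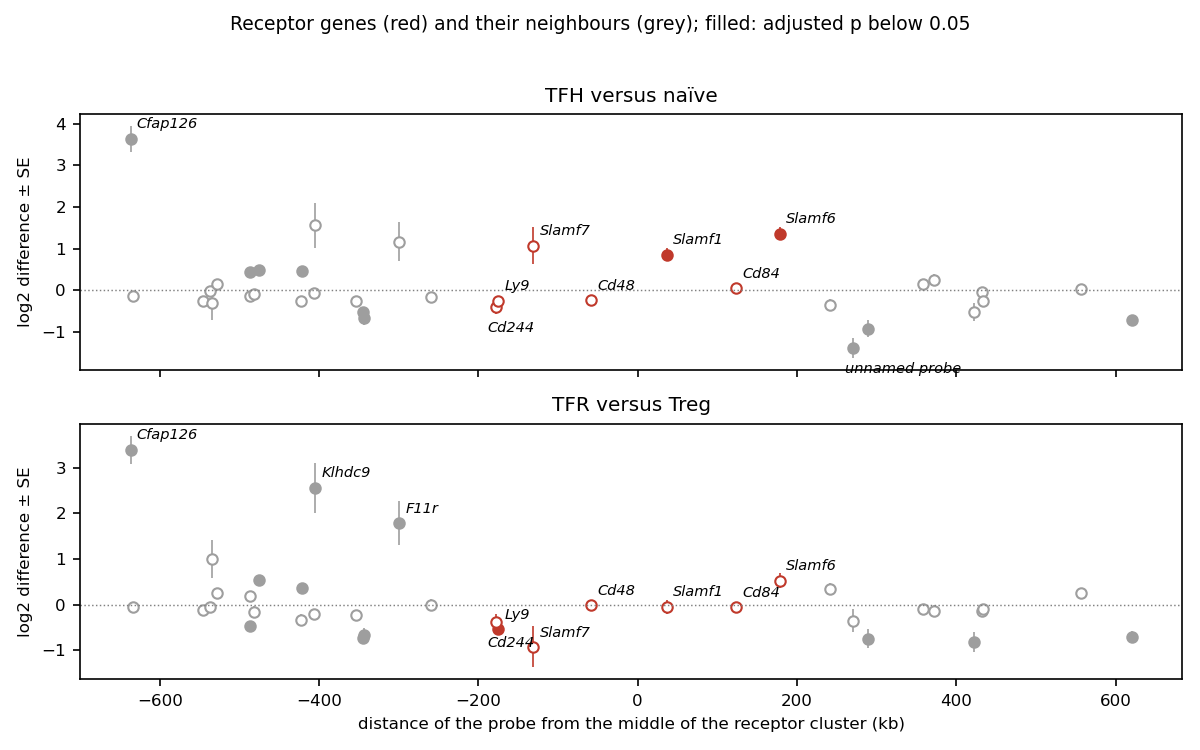
Log2 difference with SE of receptor genes (red) and neighboring genes (grey) against the distance of their probe in kb from the middle of the receptor cluster, filled where the limma adjusted p was below 0.05. Cd84, at 0.05 in TFH versus naïve cells, sits between Slamf1 at 0.85 and Slamf6 at 1.36, and Cfap126 stands highest in both comparisons.

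The remaining relatives were mostly silent. Slamf8 and the genes of the SAP-related adaptors EAT-2 (Sh2d1b1) and its sister gene (Sh2d1b2) were above background on 0 arrays and not tested. Cd2, whose product binds CD48, read 88810 and 100860 RU in naïve and 124905 and 133381 RU in TFH cells, and rose by 0.45 ± 0.08 (limma adjusted p = 0.0107). That call was lost without the d12 naïve array (0.41, adjusted p = 0.076), with 75th percentile scaling alone (0.16, adjusted p = 0.266), and with the second brightest probe (0.22, adjusted p = 0.145). Slamf9, a receptor of myeloid cells, read 54 and 77 RU in TFH and 148 and 205 RU in TFR cells, and 20 to 22 RU in naïve and Treg cells. It was at least 1.1-fold higher in TFH than in naïve cells (adjusted p = 0.0017) and at least 3.28-fold higher in TFR than in Treg cells (adjusted p = 0.000632). TFR exceeded TFH cells by 1.45 ± 0.16 (adjusted p = 0.00553), a call lost without the d25 TFR array (1.32, adjusted p = 0.0537). Summed signals of 7 myeloid genes were 16714 to 21772 RU in TFR and 17365 to 23425 RU in TFH cells, and 18687 to 32517 RU in Treg and naïve cells. Itgam made up most of these sums, with 13020 to 28504 RU. Lyz2 read 379 and 1258 RU in TFR and 205 and 449 RU in Treg cells, and Fcer1g 1004 and 1380 RU in TFR and 574 and 594 RU in Treg cells, differences that did not pass (adjusted p = 0.13 and 0.114). The main probes of Csf1r and Itgam went the other way. Csf1r read 394 and 417 RU in TFR and 537 and 496 RU in Treg cells. Itgam read 19935 and 13599 RU in TFR and 21400 and 17088 RU in Treg cells. The second brightest Csf1r probe was higher in TFR (354 and 508 RU) than in Treg cells (255 and 183 RU), and the dimmest was lower. Itgax, Cd14, and Clec9a were at the floor in both cell types. The part of myeloid cells in the Slamf9 values was not tested.

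Of 15 genes for molecules that SAP or the receptor tails engage, all tested, 7 rose and 3 fell in TFH versus naïve cells, where 46.5% of all genes passed, and 3 rose and 4 fell in TFR versus Treg cells, near the 39.6% of all genes. The median of the list was 0.24 in the first comparison and -0.07 in the second. Fyn, the kinase that SAP recruits, read 2446 and 2617 RU in naïve, 5863 and 5514 RU in TFH, 3169 and 3293 RU in Treg, and 4155 and 4406 RU in TFR cells, with no overlap between the cell types. It rose 2.25-fold in TFH over naïve cells (1.17 ± 0.09, limma adjusted p = 0.000881) and 1.32-fold in TFR over Treg cells (0.41 ± 0.09, adjusted p = 0.024), the latter call being lost without any one of the Treg or TFR arrays (adjusted p from 0.103 to 0.134). Its order, naïve, Treg, TFR, TFH, was also that of Sh2d1a, although for Sh2d1a neither Treg versus naïve nor TFR versus TFH cells passed the threshold. A link between both genes was not tested. Ptpn11 encodes the phosphatase SHP2, which can bind the receptor tails in place of SAP. It read 10324 and 10978 RU in naïve, 103523 and 143486 RU in TFH, 10117 and 11192 RU in Treg, and 25759 and 27648 RU in TFR cells. It rose by 3.52 ± 0.13 in TFH (adjusted p = 0.000176) and by 1.33 ± 0.13 in TFR cells (adjusted p = 0.00268).

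Rasa1, a Ras GTPase-activating protein that joins the SLAM complex through Dok adaptors, was higher in TFH than in naïve cells by 1.29 ± 0.12 (limma adjusted p = 0.00149) and in Treg than in naïve cells by 1.30 ± 0.12 (adjusted p = 0.00574), the latter call being lost without the d12 naïve array (1.28, adjusted p = 0.0547). Pak1, a kinase that acts on the actin skeleton, was at least 2.69-fold lower in TFH than in naïve cells (adjusted p = 0.0045). In TFR cells it was at least 2.58-fold lower than in Treg cells (adjusted p = 0.00953, and 0.0527 without the d25 Treg array), since it was above background on none of the follicular arrays. In the difference between the follicular steps 4 of the 15 passed, against 8.49% of all genes, all with a lower value in the Foxp3+ cells, Fyn (-0.76 ± 0.13, adjusted p = 0.0333), Prkcq (-0.88 ± 0.15, adjusted p = 0.0333), Ptpn11 (-2.19 ± 0.18, adjusted p = 0.00666), and Rasa1 (-1.45 ± 0.17, adjusted p = 0.0146). The Fyn difference lost its call without any one array other than the d25 TFH array, and the Prkcq difference without any one of the 8 arrays. Both also lost it with no filter on dim probes and with the slide as a block in place of the day. The Prkcq call was lost as well with the second brightest probe and with the mean of all its probes. The Rasa1 difference lost its call without any one of 5 arrays, both naïve, both TFR, and the d25 Treg array (adjusted p from 0.0593 to 0.0856).

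**Figure D5:**
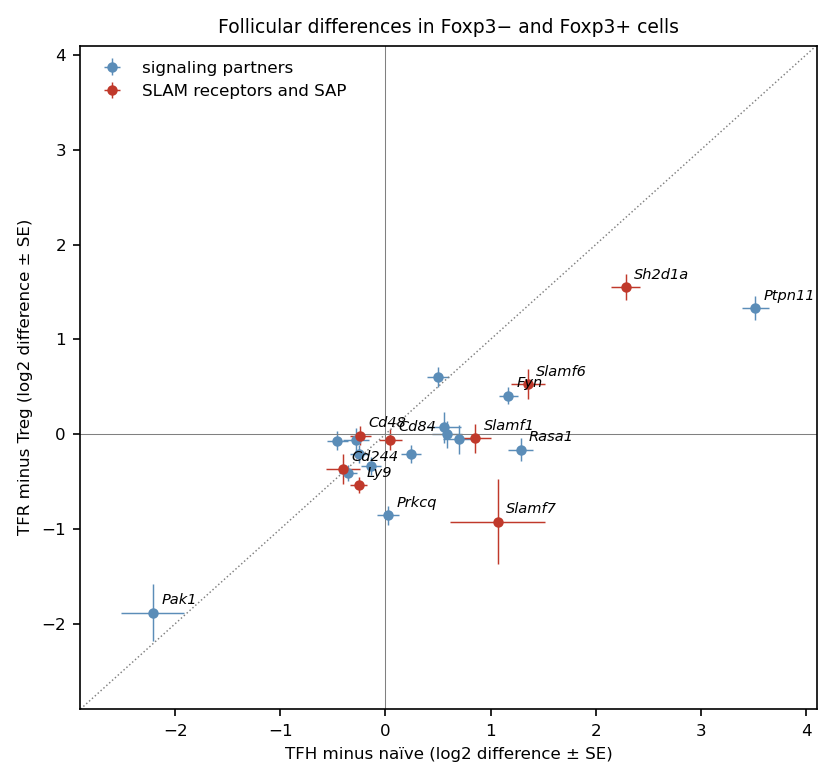
Log2 difference with SE of TFR minus Treg cells (vertical) against TFH minus naïve cells (horizontal) for the SLAM receptors and SAP (red) and the 15 signaling partners (blue), with the dotted line marking equal steps. Sh2d1a (2.29 and 1.55), Ptpn11 (3.52 and 1.33), and Fyn (1.17 and 0.41) lie below that line, and the values of Slamf7 and Pak1 rest on dim signals.

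A list of 5 genes for T cell transcription factors and cytokines was followed as possibly downstream of SAP. In TFH versus naïve cells 5 of 5 rose (46.5% of all genes passed), and in TFR versus Treg cells 4 of 5 rose (39.6%), all but Zbtb16. In TFR versus TFH cells 1 was higher and 4 were lower (22.1%), while Sh2d1a, at -0.54 ± 0.14, narrowly missed the threshold (limma adjusted p = 0.0512). In Treg versus naïve cells 2 were higher and 1 was lower (9.88%), with Sh2d1a at 0.19 ± 0.14 (adjusted p = 0.44). A link between Sh2d1a and these genes was not tested. Il4 read 843 and 451 RU in naïve, 68122 and 74904 RU in TFH, 547 and 210 RU in Treg, and 12567 and 12554 RU in TFR cells. It rose by 6.86 ± 0.41 in TFH over naïve cells (limma adjusted p = 0.000452) and by 5.21 ± 0.41 in TFR over Treg cells (adjusted p = 0.00172). Il21 rose by 6.85 ± 0.27 in TFH cells (adjusted p = 0.000188) and was at least 36.3-fold higher in TFR than in Treg cells (adjusted p = 0.00048), where it was listed at the floor. For RNA, the paper states that TFR cells of Peyer's patches, but not those of pLN, expressed Il4 and Il21 substantially. Cells of Peyer's patches are not among the samples used here. For IL4 protein after stimulation, the paper describes Foxp3+ cells of pLN as virtually negative. The part of TFH cells in the Il4 and Il21 values of TFR cells was not tested. Maf, a factor that drives Il4 and Il21, rose by 5.14 ± 0.25 (adjusted p = 0.000276) and 2.08 ± 0.25 (adjusted p = 0.00456). Gata3 rose by 0.90 ± 0.17 (adjusted p = 0.013) and 0.92 ± 0.17 (adjusted p = 0.0151). The first of these calls was lost without the d12 naïve array (0.71, adjusted p = 0.073) and the second without any one of the Treg or TFR arrays (adjusted p from 0.0694 to 0.0968). Zbtb16 (PLZF), which marks the NKT lineage that depends on SAP, was well above background in TFH cells alone, with 154 and 114 RU, and was at least 2.26-fold higher there than in naïve cells (adjusted p = 0.0153). It was tested only because both TFH arrays were above background, so this call, also counted among the 5 above, is not independent of that filter. Without the d12 TFH array (adjusted p = 0.0763), the d12 naïve array (0.0595), or the d25 naïve array (0.0876) that call was lost.

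The patterns closest to each gene, among 13292 genes above background on all 8 arrays, are given by Pearson r of the log2 values over these arrays, as a description in which all genes share the same 8 libraries. Closest to Sh2d1a were Nr2f6 (0.998), Pdcd1 (0.996), and Jdp2 (0.995), and Pdcd1 was part of the gate. Closest to Slamf6 were Rsph3a (0.981), Pon2 (0.981), and Spry1 (0.979), and to Slamf1 Arhgap18 (0.99), Phtf2 (0.956), and Dclre1a (0.952). Ly9 ran closest to Cog6 (0.989), Sertad1 (0.989), and Uqcrc2 (0.987), Cd48 to Hsp90b1 (0.978), Ola1 (0.977), and Bbs4 (0.97), and Cd244 to 9230110C19Rik (0.987), Tbc1d17 (0.977), and Mapk1ip1 (0.965). For Cd84 and Slamf7, whose groups overlapped, the highest values were 0.965 with AU041133 and 0.936 with Fam32a.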

How the data were processed

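Agilent one-color arrays were hybridized with amplified cRNA from 25 ng of total RNA per sorted population. The authors extracted the spots with Agilent Feature Extraction 10.7.3.1 and deposited the background-corrected intensity of each spot with its flags, as well as a table of normalized intensities, both used here. From the spots, flagged ones, those outside 1.42 interquartile ranges and those with a pixel coefficient of variation above 0.5 were left out, the 4 spots of a probe were averaged geometrically, and arrays were quantile normalized, scaled to a common 75th percentile, floored at 20 RU, and converted to log2. A probe was above background when over 50% of its spots were flagged so. The brightest probe stood for a gene, and a gene was tested if both arrays of at least 1 population showed it above background. Slamf7, Slamf9, Pak1, and Zbtb16 met this only through the cell types in which they were brighter. Their differences there are not independent of this filter. Per array 46.3% to 50.4% of 39429 probes were above background. The number of arrays limits precision.

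Differences were fitted with limma 3.58.1 in R 4.3.3 (lmFit, eBayes, cell type plus day, 3 residual degrees of freedom and a prior of 1.89), with Benjamini-Hochberg adjustment over 15764 genes, and the code was tested on simulated data. Comparisons of TFR with naïve and of Treg with TFH cells were added to order the levels. The methods name a one-way analysis with replicates, which the 1 array per cell type and day used here does not allow. The 8 genes, the pathway, marker and neighbor lists, and the naming rule (all 8 genes, listed genes called with a log2 difference of at least 1, and the 3 closest patterns) were chosen with earlier results of these data known. Listed genes below that size, Cd2, Gata3, and Prkcq, are named as examples chosen after their values were seen. A gene of the B cell list is not reported here and was left out of its sum. The 21 alternatives comprised normalization, background, spot exclusion, floor, filters, probe choice, the authors' table, the slide as a block or random block, no day term, a variance trend, and leaving out each array.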

Additional observations from a re-analysis of the deposited data

How the results depend on the processing

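Among the arrays used, no cell type had a replicate at a given day. Each call therefore rests on 2 arrays per cell type and on a spread shared by all arrays. The signal over background limits Slamf7. Of the member calls, Sh2d1a in TFH versus naïve and in TFR versus Treg cells held under each of 20 alternatives and Slamf6 in TFH versus naïve cells under each of 21, although averaging the silent second probe into Sh2d1a lowered its differences to 1.14 and 0.74. Cd48 in Treg versus naïve cells lost its call under 13 of 21 alternatives, Slamf1 in TFR versus TFH cells under 10, Slamf6 in Treg versus naïve cells under 8, Ly9 in TFR versus Treg cells under 5, Slamf1 in TFH versus naïve and in Treg versus naïve cells under 3 each, and Cd48 in TFR versus TFH cells under 2. Ly9 in TFR versus naïve cells lost its call under 7, Slamf1 in Treg versus TFH cells under 6, Cd48 in TFR versus naïve and Ly9 in Treg versus TFH cells under 4 each, Cd244 in TFR versus naïve cells under 3, and Cd48 in Treg versus TFH cells under 1. Slamf6 in TFR versus Treg cells gained a call under 9 and Sh2d1a in TFR versus TFH cells under 6.

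The number of members called was 3 in TFH versus naïve cells and became 5 with normexp background correction and with a variance trend and robust eBayes. In TFR versus Treg cells it fell from 2 to 1 without the day term. In TFR versus TFH cells it fell from 2 to 0 without the day term and to 1 with no filter on dim probes or with the slide as a block in place of the day. In Treg versus naïve cells it fell from 3 to 0 with no filter and to 1 with the slide as a block. The difference between the follicular steps had 0 calls and got 1 with normexp, with the mean of all probes, and with the second brightest probe, and 3 with the variance trend. For the day, 0 calls became 1 with normexp and with only genes above background on all arrays, and 3 with the variance trend. Leaving out 1 array at a time gave 2 to 4 calls in TFH versus naïve, 1 to 3 in TFR versus Treg, 0 to 3 in TFR versus TFH, 0 to 2 in Treg versus naïve cells, 0 to 1 for the difference between the steps, and 0 for the day. The cause was not tested, except that a filter changes the number of genes adjusted for and that leaving out an array reduces the arrays. The share of all genes called moved too, between 17.8% (no filter, 5334 genes) and 49.7% (variance trend, 7834) for TFH versus naïve cells, 12.9% and 43.5% for TFR versus Treg, 5.51% and 27.1% for TFR versus TFH, 2.35% and 13.5% for Treg versus naïve, 1.4% and 11.7% for the difference between the steps, and, for the day, 0% (mean of all probes) and 7.93%. No paired analysis was possible because the labels number no replicates, and the day, which arrays of a group share across cell types, is already a term of the model.

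Signs turned in 29 cases, and each was a difference that did not pass the test. Slamf6 in TFR versus TFH cells became -0.15 with the mean of all probes, -0.34 with the second brightest probe, and -0.15 with the slide as a block. Cd84 in Treg versus naïve cells became 0.39 with the mean of all probes, 0.80 with the second brightest probe, and 0.0071 with normexp. Slamf7 in Treg versus naïve cells became -0.024 with the slide as a block, and the day difference of Sh2d1a -0.090 with 75th percentile scaling alone. In the comparisons added to order the levels, Cd84 became 0.22 in TFR versus naïve and 0.027 in Treg versus TFH cells with the mean of all probes, and 0.52 and 0.13 with the second brightest probe. Leaving out 1 array at a time turned the sign of 11 differences. In TFR versus Treg cells these ranged from -0.118 to 0.089 for Cd48, from -0.183 to 0.069 for Cd84, and from -0.133 to 0.045 for Slamf1. In Treg versus naïve cells they ranged from -0.127 to 0.074 for Cd84 and from -0.22 to 1.29 for Slamf7. Cd84 in TFH versus naïve cells ranged from -0.053 to 0.148 and Slamf6 in TFR versus TFH cells from -0.19 to 0.27. In the difference between the steps, Cd244 ranged from -0.19 to 0.26 and Cd84 from -0.230 to 0.022. In TFR versus naïve cells they ranged from -0.209 to 0.042 for Cd84 and from -1.15 to 0.37 for Slamf7. Of the other values recomputed for single genes, members included, 1868 stayed on the same side, 46 gained and 174 lost a call.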
